A study of Astyanax mexicanus with 96 samples.

Results

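The genes of the malate-aspartate shuttle were followed in ventricles of Astyanax mexicanus, the Mexican tetra. Members were the genes whose symbol was got1, got2a, got2b, mdh1aa, mdh1ab, mdh2, slc25a11, slc25a12 or slc25a13. Of these 9 symbols 8 were found, and they belonged to 10 of the 27420 genes counted, because mdh1aa and slc25a12 were each carried by 2 genes. No gene carried the symbol got2b in the table and annotation used here. Surface fish (SF), the eyed river form, and Pachón cavefish (PC), the blind form of the Pachón cave, gave 48 libraries each, 1 ventricle per library, from fish stated to be 2 years old. In each population 5 ventricles were taken after a sham operation at 6 h, 1 day and 3 days (6 hps, 1 dps, 3 dps). A further 5 were taken after cryo-injury at 6 h and 1, 3, 7, 14 and 30 days (6 hpci, 1 to 30 dpci), and 3 were uninjured. Cryo-injury kills part of the ventricle wall with a probe chilled in liquid nitrogen, whereas the sham probe was at room temperature.

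The malate-aspartate shuttle carries the reducing equivalents of cytosolic NADH into mitochondria, whose inner membrane NADH cannot cross. In the cytosol, malate dehydrogenase 1 (mdh1) uses NADH to turn oxaloacetate into malate. Malate enters the matrix through the malate-2-oxoglutarate carrier slc25a11, and mdh2 turns it back into oxaloacetate and gives NADH to the respiratory chain. The aspartate aminotransferases, got1 in the cytosol and got2 in the matrix, return the carbon as aspartate, which leaves through the calcium-sensitive aspartate-glutamate carriers slc25a12 or slc25a13. The shuttle is known as the main route for cytosolic NADH in heart muscle of mammals, where slc25a12 is the usual carrier of excitable tissue and slc25a13 that of liver.

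All positions are on the assembly Mexican tetra 2.0, from the deposited annotation, which is labelled as that of surface fish. Both populations were counted on it, and its part in differences between SF and PC was not tested. The dehydrogenases were mdh1aa (ENSAMXG00000002785, chromosome 12:3793552-3805668, minus strand), a second gene with the symbol mdh1aa (ENSAMXG00000032817, scaffold APWO02001960.1:7382-27314, plus strand), mdh1ab (ENSAMXG00000040846, chromosome 9:15007173-15023337, minus strand) and mdh2 (ENSAMXG00000038918, chromosome 20:13753703-13764350, minus strand). The aminotransferases were got1 (ENSAMXG00000002245, chromosome 25:20091324-20101035, plus strand) and got2a (ENSAMXG00000036798, scaffold APWO02000154.1:22077-31015, minus strand). The carriers were slc25a11 (ENSAMXG00000043690, scaffold APWO02000063.1:1023122-1037068, plus strand), slc25a12 on chromosome 13 (ENSAMXG00000012512, 10822905-10833288, minus strand) and on chromosome 19 (ENSAMXG00000011447, 16013571-16066555, minus strand), and slc25a13 (ENSAMXG00000014532, chromosome 23:27741303-27799339, minus strand). The counted interval of got1 and of the 4 carrier genes had been redrawn by the authors.

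Each library read the 3′ ends of transcripts, so levels of different genes can be set side by side without a length term. Levels are CPM, counts scaled to a common library size by trimmed means (TMM), and errors of levels are SD over libraries (n = 3 uninjured, otherwise 5). The members spanned a wide range of raw counts. The gene mdh2 had 682 to 6304 counts per library, got2a 321 to 1700, mdh1aa on chromosome 12 158 to 1690 and slc25a11 130 to 840. The gene mdh1ab had 34 to 655 counts, got1 91 to 565 and slc25a12 on chromosome 13 11 to 146. The remaining genes were barely counted. The chromosome 19 slc25a12 had 0 to 21 counts, the scaffold mdh1aa 0 to 15 and slc25a13 0 to 9, with at most 3 counts in 20, 54 and 73 of the 96 libraries.

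Changes were tested with edgeR's quasi-likelihood test in 1 model of all 96 libraries, which holds 1 factor of unwanted variation (RUVg). The study's methods add RUVg weights to the model and give no number of factors, so the number used here is a choice. A member was called when its p, adjusted over all 18763 genes tested, was under 0.05, and log2 changes carry their standard error (SE). The factor differed between the groups themselves, with a median of 0.0767 at 7 dpci against -0.112 uninjured in SF and 0.183 against 0.0191 in PC. Across the 96 libraries it ran against the level of mdh2 (Pearson r of -0.75, a description, since both come from the same libraries). Fitted changes differ from the ratio of the CPM means, and the fit with no factor is given beside every call of a member that it ends. Leaving out a replicate number at once in every group that holds it ended many calls. Those numbers are given beside each call of a member, with the change then fitted. Calls of genes outside the members carry neither of these. Uninjured libraries are numbered 1, 2 and 3 in SF and 1, 3 and 5 in PC. Leaving out another number takes no uninjured ventricle from that population. With the factor the median change of all genes between SF and PC was up to 0.13 on the log2 scale, against 0.00 without it. Of the 29 calls, 22 held with no factor, 4 with 2 factors, 6 with a filter of at least 10 counts in 5 libraries and 7 when only the compared groups were fitted.

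In these whole ventricles, fewer cells of a type and less RNA per cell cannot be told apart. Of 7 cardiomyocyte markers tested, myl7, cmlc1, mybpc3 and ryr2b were read in every library, whereas tnni1b, tnnc1a and PLN had medians of 0.182, 0 and 0 CPM and highest values of 3.93, 18.4 and 2.22 CPM. The summed markers ran from 8946 to 23484 CPM in SF at 1 dpci against 25095 to 40081 CPM at 1 dps, and from 9140 to 19855 CPM in PC at 7 dpci against 35256 to 36218 CPM uninjured. Over all libraries their sum rose and fell with mdh2 (r = 0.81, again a description of the same libraries). The same r was 0.77 for got2a, 0.76 for slc25a11, 0.74 for mdh1aa on chromosome 12, 0.60 for got1 and 0.20 for mdh1ab. The markers' part in the results below was not tested. On the 100 genes that differ most between the populations, the 48 SF and 48 PC libraries did not overlap. Genes picked for that difference favour such a separation, so it is only a description. Total counts ran from 672292 to 2586602 per library. In 17 libraries 8 fast skeletal muscle genes summed to over 100 CPM, and 3 SF libraries (replicate 1 at 7 and 30 dpci and replicate 2 at 14 dpci) held over 2000 CPM. Without those 3 libraries 27 of the 29 calls below held, and the SF changes at 30 dpci of got1 (0.70) and mdh1ab (1.05) were no longer called.

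The mitochondrial enzyme mdh2 was the most abundant member, and its lowest means in each population were those of injured ventricles. In SF it averaged 2960 ± 539.5 uninjured, 3473 ± 571 for 6 hps, 2589 ± 557 for 1 dps and 2828 ± 246 for 3 dps CPM. After injury in SF it averaged 2321 ± 258 for 6 hpci, 1152 ± 229.9 for 1 dpci, 1156 ± 349 for 3 dpci, 1183 ± 242 for 7 dpci, 1751 ± 328 for 14 dpci and 2835 ± 374 for 30 dpci CPM. The lowest 3 SF means were thus those of 1, 3 and 7 dpci, and the 30 dpci mean lay within 1 SD of the uninjured mean.

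In PC, mdh2 averaged 1987 ± 97.6 uninjured, 2104 ± 238 for 6 hps, 2035 ± 353 for 1 dps and 1875 ± 306 for 3 dps CPM. After injury it averaged 1368 ± 256 for 6 hpci, 1269 ± 293 for 1 dpci, 1169 ± 252 for 3 dpci, 822 ± 249 for 7 dpci, 1366 ± 364 for 14 dpci and 1948 ± 324 for 30 dpci CPM, with the lowest level of all 20 groups at 7 dpci. By library, SF at 3 dpci had 885, 1374, 688, 1492 and 1338 CPM, against 3039, 3021, 2850, 2429 and 2801 CPM at 3 dps. All 5 injured SF ventricles lay below all 5 sham ventricles, and mdh2 fell (log2 change -0.89 ± 0.16 (SE), adjusted p = 5.6e-05). It also fell at 1 dpci in SF, where the injured ventricles had 927, 933, 1230, 1477 and 1191 CPM against 3339, 2952, 1951, 2232 and 2472 CPM at 1 dps, again with no overlap (log2 change -0.67 ± 0.17 (SE), adjusted p = 0.016, lost without replicate 1, 4 or 5 at -0.44, -0.54 and -0.50). Neither SF fall of mdh2 was called with 2 factors, with a filter of at least 10 counts in 5 libraries or with only the compared groups. The summed cardiomyocyte markers at 3 days spanned 13585 to 28991 CPM in injured SF and 27142 to 43145 CPM in sham SF.

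No injury comparison of mdh2 in PC was called with the factor. At 7 dpci the PC libraries had 768, 605, 678, 815 and 1243 CPM, against 2087, 1892 and 1982 CPM uninjured, with no overlap. The fitted change there was -0.40 with the factor (adjusted p = 0.43) and -1.27, adjusted p = 1.4e-06, with no factor. In SF at 7 dpci the values were -0.27 (adjusted p = 0.70) and -1.32, adjusted p = 6.1e-07. By 30 dpci mdh2 had risen above 7 dpci in PC (log2 change 0.62 ± 0.18 (SE), adjusted p = 0.027, lost without replicate 4 at 0.24), with 1535, 2398, 2101, 1901 and 1806 CPM at 30 dpci and no overlap with 7 dpci. The same step in SF was 0.45 (adjusted p = 0.27) with the factor and 1.26, adjusted p = 1.5e-07, with no factor, and its groups did not overlap either. The interaction, the SF change minus the PC change, passed the test for mdh2 at none of the 6 times (adjusted p from 0.49 to 1.00).

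**Figure D1:**
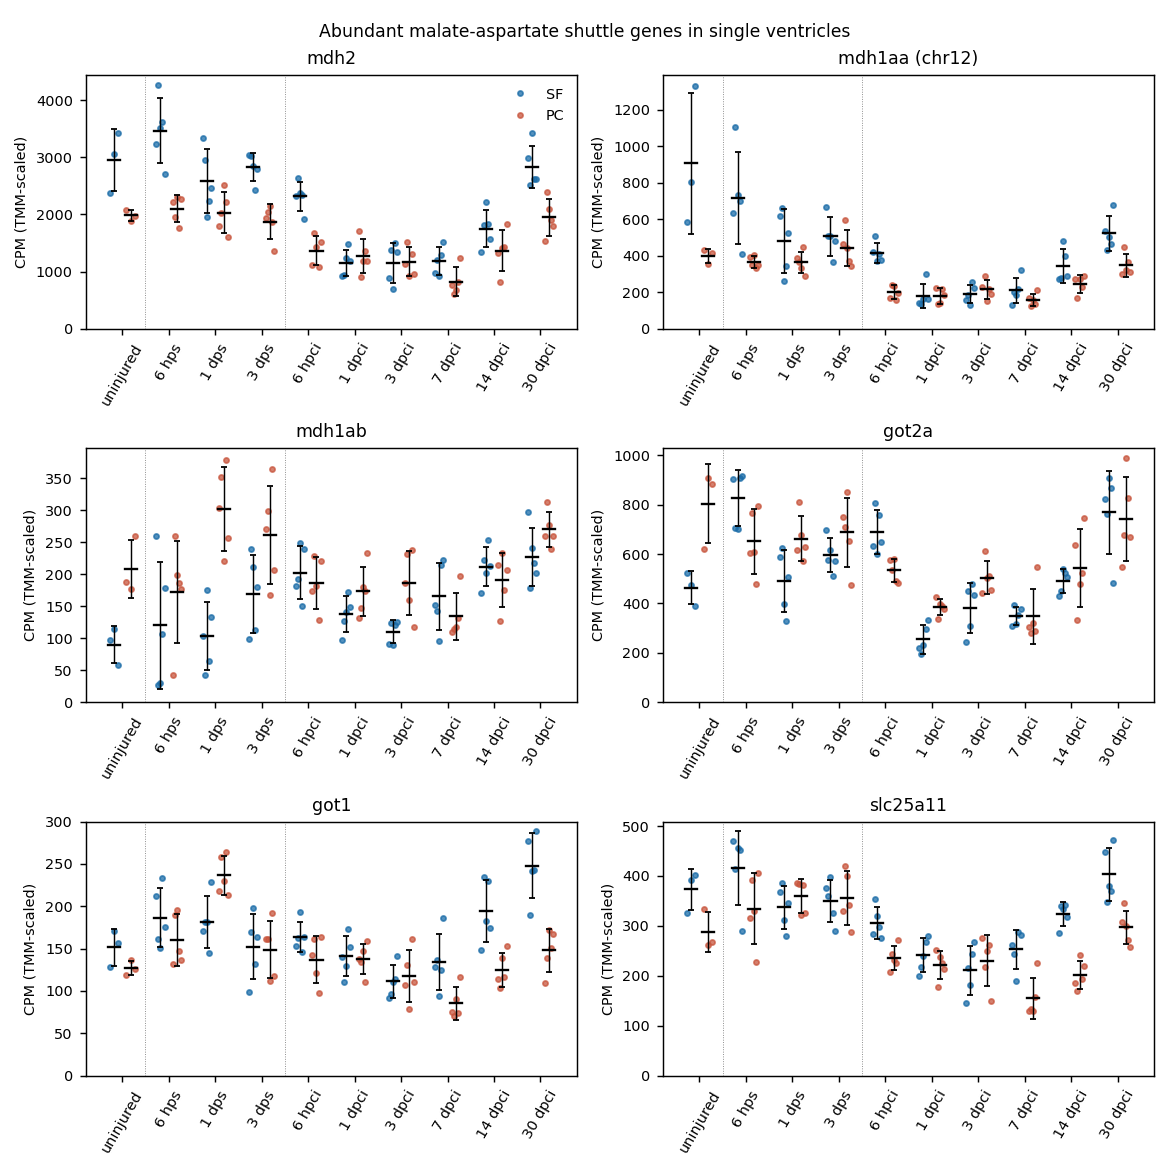
Levels of the 6 abundant malate-aspartate shuttle genes in TMM-scaled CPM (y axis, from 0) for each condition (x axis), with SF left of PC in each condition. Points are single ventricles (3 uninjured, otherwise 5), black bars the mean and SD. The chromosome 12 mdh1aa and mdh2 have low means at 1 to 7 dpci and higher ones at 30 dpci, while mdh1ab starts low in SF, at 89.7 CPM.

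Between the populations mdh2 was higher in SF by CPM in 8 of 10 conditions. The 1 call went the other way, lower in SF at 1 dpci (log2 change -0.77 ± 0.18 (SE), adjusted p = 0.0013, lost without replicate 2 at -0.60). There the libraries overlapped, with 927, 933, 1230, 1477 and 1191 CPM in SF against 1705, 910.4, 1176, 1368 and 1187 CPM in PC, and with no factor the change was -0.14, adjusted p = 0.77. With 2 factors it was 0.067 and with the stricter filter 0.11. With no factor mdh2 was instead higher in SF at 6 hps (0.72, adjusted p = 0.005), 3 dps (0.59, adjusted p = 0.026), 6 hpci (0.76, adjusted p = 0.0024) and 30 dpci (0.54, adjusted p = 0.049). In those 4 conditions every SF library lay above every PC library.

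Of the cytosolic dehydrogenases, mdh1aa on chromosome 12 was called lower after injury in both populations with the factor. In SF, this gene averaged 905 ± 384 uninjured, 715 ± 251 for 6 hps, 480 ± 174 for 1 dps and 505 ± 107 for 3 dps CPM. Its SF means after injury were 416 ± 55.1 for 6 hpci, 178 ± 68.0 for 1 dpci, 190.3 ± 49.4 for 3 dpci, 209 ± 68.8 for 7 dpci, 342 ± 91.5 for 14 dpci and 523 ± 95.2 for 30 dpci CPM. Uninjured SF ventricles held the highest mean of the 20 groups, and they spread widely, at 583, 801 and 1331 CPM.

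In PC, mdh1aa on chromosome 12 averaged 399 ± 38.5 uninjured, 364 ± 32.1 for 6 hps, 362 ± 59.4 for 1 dps and 442 ± 98.8 for 3 dps CPM. After injury it averaged 199 ± 37.3 for 6 hpci, 179.8 ± 42.6 for 1 dpci, 215 ± 51.0 for 3 dpci, 157 ± 34.1 for 7 dpci, 244 ± 48.8 for 14 dpci and 347 ± 61.9 for 30 dpci CPM, so that each PC mean after injury was lower than every uninjured or sham PC mean. The gene was called lower after injury in 5 of the 12 injury comparisons, more often than any other member. In SF at 7 dpci the libraries had 129.7, 198, 186, 214 and 318 CPM, all below the uninjured ones (log2 change -1.06 ± 0.31 (SE), adjusted p = 0.036, lost without replicate 1, 4 or 5 at -1.05, -0.54 and -0.90). In SF at 3 dpci they had 159, 185, 131, 255 and 223 CPM, all below the 665, 505, 508, 367 and 478 CPM at 3 dps (log2 change -0.99 ± 0.21 (SE), adjusted p = 0.00064, lost without replicate 5 at -0.78). At 1 dpci in SF the values were 137, 134, 161, 298 and 161 CPM, against 618, 658, 258, 341 and 525 CPM at 1 dps, with 1 injured ventricle inside the sham range (log2 change -0.94 ± 0.22 (SE), adjusted p = 0.0073, lost without replicate 1 or 5 at -0.70 and -0.58).

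In PC the chromosome 12 mdh1aa fell at 3 dpci, with 225, 289, 150, 218 and 192 CPM against 463, 594, 444, 369 and 342 CPM at 3 dps (log2 change -0.78 ± 0.20 (SE), adjusted p = 0.014, lost without replicate 4 or 5 at -0.51 and -0.68). It fell as early as 6 hpci, with 165, 238, 235, 158 and 197 CPM against 392, 347, 404, 329 and 347 CPM at 6 hps (log2 change -0.68 ± 0.20 (SE), adjusted p = 0.04, lost without replicate 1, 4 or 5 at -0.72, -0.38 and -0.57). Neither pair of PC groups overlapped. With no factor each of these 5 falls was called and larger, from -0.87 to -2.11, and the gene was also called lower in SF at 6 hpci, 14 dpci and 30 dpci and in PC at 1 and 7 dpci. The sham operation alone went with a lower level in SF, at 1 dps (log2 change -1.02 ± 0.22 (SE), adjusted p = 0.00045, lost without replicate 3 or 4 at -0.70 and -0.44) and at 6 hps (log2 change -0.74 ± 0.24 (SE), adjusted p = 0.032, lost without replicate 2, 3, 4 or 5 at -0.78, -0.42, -0.35 and -0.50). With no factor the change at 6 hps was -0.34, adjusted p = 0.48. Some of these changes turned positive under other fits, with 2 factors at 3 dpci in PC (0.064) and at 6 hps (0.52) and 1 dps (0.23) in SF, with the stricter filter at 6 hps in SF (0.22), and with only the compared groups at 7 dpci in SF (0.17). None of the 5 falls after injury was called with 2 factors or with the stricter filter. The SF falls at 7 dpci and after sham rest on 3 uninjured ventricles, which overlapped both sham groups.

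Between the populations, no condition was called for mdh1aa on chromosome 12 with the factor. Uninjured SF ventricles lay above the PC ones, which had 429, 356 and 413 CPM, and the fitted change was 0.40 (adjusted p = 0.52) with the factor. With no factor it was higher in SF uninjured (1.18, adjusted p = 0.0037), at 6 hps (0.97, adjusted p = 0.001) and at 6 hpci (1.06, adjusted p = 0.00027), all with no overlap of libraries. From 1 to 3 dpci the SF and PC means lay within 1 SD of each other.

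The second cytosolic gene, mdh1ab, ran a different course in SF. In SF it averaged 89.7 ± 29.3 uninjured, 119.7 ± 99.7 for 6 hps, 103.3 ± 53.1 for 1 dps and 168 ± 61.0 for 3 dps CPM. After injury in SF it averaged 202 ± 41.4 for 6 hpci, 137 ± 27.9 for 1 dpci, 109.9 ± 18.2 for 3 dpci, 165 ± 53.1 for 7 dpci, 212 ± 30.1 for 14 dpci and 227 ± 45.2 for 30 dpci CPM. Each SF mean after sham or injury was above the uninjured SF mean, which was the lowest of the 20 groups. Over the 96 libraries the levels, as log2(CPM + 1), of mdh1aa on chromosome 12 and mdh2 moved together (r = 0.93), whereas mdh1ab had r = -0.07 with mdh1aa on chromosome 12 and -0.01 with mdh2. These values pool both populations and describe libraries that share their groups, and r was not taken within each population. In PC the lowest mean of mdh1ab (134 CPM) was at 7 dpci, as for mdh1aa on chromosome 12 (157 CPM) and mdh2 (822 CPM).

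In PC, mdh1ab averaged 208 ± 45.4 uninjured, 173 ± 79.5 for 6 hps, 302 ± 65.3 for 1 dps and 262 ± 76.8 for 3 dps CPM. After injury it averaged 186 ± 40.2 for 6 hpci, 173 ± 38.6 for 1 dpci, 187 ± 50.1 for 3 dpci, 134 ± 36.3 for 7 dpci, 191 ± 41.6 for 14 dpci and 269.8 ± 27.6 for 30 dpci CPM. In SF at 30 dpci the gene rose above uninjured ventricles, with 297, 179, 240.4, 217 and 202 CPM against 96.7, 115 and 57.5 CPM and no overlap (log2 change 1.16 ± 0.36 (SE), adjusted p = 0.04, lost without replicate 1, 3, 4 or 5 at 1.08, 1.08, 1.16 and 1.01). In PC it rose at 30 dpci above 7 dpci, with 260.2, 313, 277, 239 and 259.6 CPM against 109, 115, 117, 131 and 197 CPM, also with no overlap (log2 change 1.57 ± 0.35 (SE), adjusted p = 0.0023). With the factor this was the largest called change of any member. Both of these calls held with no factor, at 1.34, adjusted p = 0.018, and 1.01, adjusted p = 0.013. The PC call was lost with 2 factors, with the stricter filter and with only the compared groups. Its change ran from 0.027 to 2.21 over the 16 alternatives.

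With the factor mdh1ab was called lower in 3 injury comparisons, and all 3 calls were lost with no factor. In PC at 7 dpci the values overlapped those of the uninjured ventricles, which had 187, 177 and 260.3 CPM (log2 change -1.41 ± 0.43 (SE), adjusted p = 0.047, lost without replicate 1, 3 or 4 at -1.23, -1.15 and -1.41, and with no factor -0.64, adjusted p = 0.24). In PC at 1 dpci the libraries had 132, 147, 179.9, 174 and 232 CPM, against 303, 352, 221, 379 and 256 CPM at 1 dps (log2 change -1.21 ± 0.32 (SE), adjusted p = 0.022, lost without replicate 1, 2 or 4 at -1.13, -0.85 and -1.16, and with no factor -0.81, adjusted p = 0.096). In SF at 3 dpci they had 91.4, 124, 88.8, 120 and 126 CPM, against 98.5, 239, 212, 113 and 180.1 CPM at 3 dps (log2 change -0.95 ± 0.31 (SE), adjusted p = 0.043, lost without replicate 1, 2, 3 or 4 at -0.88, -0.58, -0.61 and -1.24, and with no factor -0.62, adjusted p = 0.20). The PC change at 7 dpci was 0.56 when only the compared groups were fitted. With 2 factors or the stricter filter none of the 3 falls was called. DESeq2 did not call the SF fall at 3 dpci, which was as small as -0.11 among the alternatives. In SF at 14 dpci mdh1ab was 0.56 (adjusted p = 0.60) with the factor and 1.24, adjusted p = 0.017, with no factor. Between the populations mdh1ab was not called with the factor. Uninjured SF ventricles lay below all uninjured PC ventricles, and the change was -0.56 (adjusted p = 0.56) with the factor and -1.22, adjusted p = 0.048, with no factor. At 1 dps, where the groups did not overlap either, it was -0.97 (adjusted p = 0.068) and -1.55, adjusted p = 0.00012.

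The balance of both cytosolic genes can be read within each library, with no scaling, as the share of mdh1ab in the reads of mdh1ab and the chromosome 12 mdh1aa. This measure was chosen after the levels had been seen, and 276 to 1763 reads stood behind it per library. Uninjured ventricles held 10.3% ± 5.40 in SF (SD, n = 3) and 34.1% ± 4.20 in PC. After sham the SF share was 15.7% ± 13.4 at 6 hps, 19.3% ± 12.8 at 1 dps and 25.1% ± 7.48 at 3 dps (SD, n = 5 each). After injury in SF it was 32.8% ± 6.39 for 6 hpci, 44.3% ± 5.13 for 1 dpci, 37.0% ± 3.43 for 3 dpci, 44.1% ± 7.92 for 7 dpci, 38.8% ± 5.61 for 14 dpci and 30.4% ± 4.78 for 30 dpci. The PC share ran from 31.1% ± 12.5 at 6 hps to 49.2% ± 8.33 at 1 dpci.

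All 5 SF ventricles of 7, 14 and 30 dpci had a higher mdh1ab share than each of the 3 uninjured ones (differences of 33.8, 28.5 and 20.1 percentage points). An exact two-sided permutation test gave p = 0.036 for each, the smallest that 5 against 3 allows. In PC the differences at the same times were 11.8, 9.72 and 9.87 points, also without overlap (exact p = 0.036 each). Sham alone gave a like difference in PC at 1 dps, 11.2 points above uninjured and without overlap (exact p = 0.036). At 6 hps and 3 dps the PC sham differences were -3.03 and 2.93 points, with overlap (exact p = 0.96 and 0.68). In SF they were 5.44, 9.04 and 14.8 points at 6 hps, 1 dps and 3 dps, with overlap (exact p = 0.61, 0.21 and 0.071). Against sham, the share was higher by 17.2 points in PC at 6 hpci (exact p = 0.0079, no overlap) and by 24.9 points in SF at 1 dpci (exact p = 0.016, with overlap). SF lay below PC by 15.5 points at 6 hpci and 13.5 points at 30 dpci (exact p = 0.0079 each, no overlap), and by 1.75 points at 7 dpci (exact p = 0.65). Within SF the share was 13.7 points lower at 30 dpci than at 7 dpci (exact p = 0.016). Over the 30 comparisons made, 0 passed Benjamini-Hochberg adjustment, where the smallest adjusted p was 0.067, and the SF and PC differences were not tested against each other. The chromosome 12 and chromosome 9 genes are paralogs, and how reads that match both were counted is not stated.

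**Figure D2:**
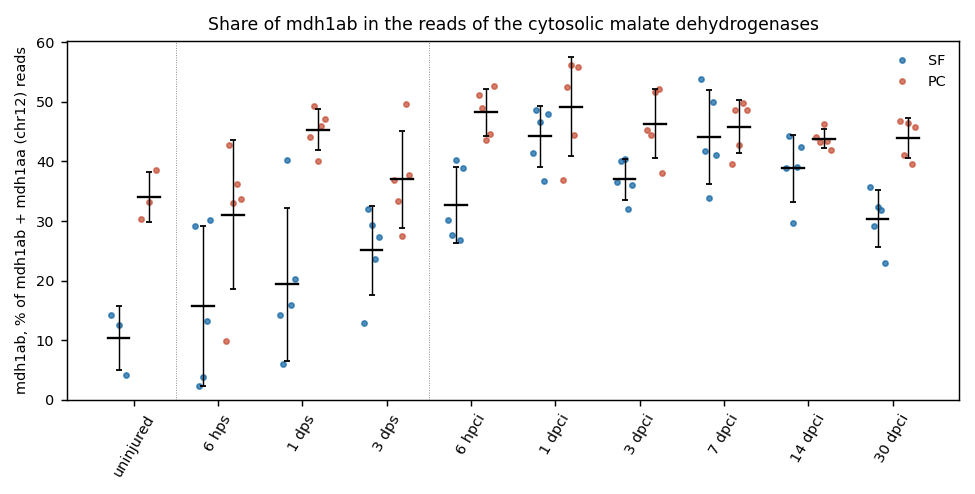
Share of mdh1ab among the reads of mdh1ab and the chromosome 12 mdh1aa, in percent (y axis, from 0), by condition (x axis), with SF left of PC. Points are single ventricles, black bars the mean and SD (n = 3 uninjured, otherwise 5). Uninjured SF ventricles reach at most 14.2% and PC ones at least 30.4%, and at 7 dpci SF averages 44.1% ± 7.92 and PC 45.9% ± 4.47.

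The scaffold gene also named mdh1aa held 316 counts over all libraries and 0 counts in 14 of them. Its highest group mean was 5.54 ± 4.41 CPM in SF at 6 hps and its lowest 0.657 ± 0.762 CPM in PC at 14 dpci. SF means lay at 5.11 ± 1.05 uninjured, 0.929 ± 0.668 at 1 dpci and 2.59 ± 0.776 at 30 dpci, and PC means at 2.78 ± 2.41, 0.826 ± 0.7 and 1.25 ± 1.05 CPM. No comparison was called with the factor. With no factor it was called in SF against PC at 6 hps, where the libraries overlapped. How reads that match both mdh1aa genes were counted is not stated, and its counts are uncertain for that reason.

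With the factor, the matrix aminotransferase got2a was the member most often called between the populations, always lower in SF. SF means were 463 ± 66.4 uninjured, 828 ± 112 for 6 hps, 489.9 ± 126 for 1 dps and 596 ± 68.6 for 3 dps CPM. Injured SF ventricles averaged 689.6 ± 89.3 for 6 hpci, 254 ± 57.5 for 1 dpci, 382 ± 102 for 3 dpci, 348 ± 36.9 for 7 dpci, 490.4 ± 48.7 for 14 dpci and 769.6 ± 169 for 30 dpci CPM. Its highest SF means were those of 6 hps and 30 dpci.

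In PC, got2a averaged 804 ± 159.5 uninjured, 651 ± 131 for 6 hps, 662 ± 91.6 for 1 dps and 688 ± 139.8 for 3 dps CPM. After injury it averaged 534 ± 45.8 for 6 hpci, 386 ± 33.0 for 1 dpci, 504 ± 67.8 for 3 dpci, 348 ± 112 for 7 dpci, 544 ± 158 for 14 dpci and 743 ± 170.4 for 30 dpci CPM. Uninjured SF ventricles had 523, 475 and 391 CPM, all below the 621, 909.9 and 882 CPM of uninjured PC ventricles (log2 change -1.19 ± 0.26 (SE), adjusted p = 0.00075, lost without replicate 2 or 3 at -0.97 and -0.91). At 1 dpci SF had 218, 194, 230.3, 296 and 331 CPM, all below the 426, 336, 398, 389.8 and 378 CPM of PC (log2 change -0.97 ± 0.21 (SE), adjusted p = 0.00039, lost without replicate 2 at -0.72). Both of these calls held with no factor, at -0.80, adjusted p = 0.026, and -0.60, adjusted p = 0.024. With 2 factors no got2a call between the populations was kept, and the uninjured one was also lost with only the compared groups. Over the 16 alternatives the change ran from -1.65 to -0.12 uninjured and from -1.36 to -0.42 at 1 dpci.

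At 1 dps got2a had 589.7, 626, 396, 330.2 and 507 CPM in SF against 618, 810.2, 679, 571 and 629 CPM in PC, with overlap (log2 change -0.82 ± 0.21 (SE), adjusted p = 0.0043, lost without replicate 2 or 3 at -0.58 and -0.80, and with no factor -0.43, adjusted p = 0.13). The 3 dpci ventricles held 242, 449, 308, 477 and 436 CPM in SF against 443, 614, 502, 509.6 and 453 CPM in PC, with overlap (log2 change -0.66 ± 0.19 (SE), adjusted p = 0.015, lost without replicate 1, 2, 3 or 5 at -0.64, -0.50, -0.64 and -0.53, and with no factor -0.40, adjusted p = 0.18). In SF got2a fell at 1 dpci relative to 1 dps, where 1 injured library lay inside the sham range (log2 change -0.68 ± 0.19 (SE), adjusted p = 0.038, lost without replicate 1, 4 or 5 at -0.49, -0.70 and -0.75). That call was kept under 6 of 16 alternatives, with changes from -0.95 to -0.34. At 30 dpci got2a was above uninjured in SF, with 823, 764, 909.6, 867 and 484 CPM and 1 library inside the uninjured range (log2 change 0.84 ± 0.21 (SE), adjusted p = 0.0059, lost without replicate 2 or 3 at 0.76 and 0.57). In PC it rose at 30 dpci above 7 dpci, with 549, 678, 990.2, 829 and 668 CPM against 305, 279, 319, 288 and 547 CPM and no overlap (log2 change 0.75 ± 0.20 (SE), adjusted p = 0.016, lost without replicate 4 at 0.43). At its 3′ end, which these libraries read, got2a shares 147 bases with si:dkey-12e7.4 on the same strand. That gene had a median of 26.5 counts per library, and how shared reads were counted is not stated.

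The cytosolic aminotransferase got1 was not called between the populations with the factor. In SF it averaged 152 ± 21.8 uninjured, 187 ± 34.7 for 6 hps, 181 ± 30.3 for 1 dps and 152 ± 38.4 for 3 dps CPM. After injury in SF it averaged 164 ± 17.9 for 6 hpci, 141 ± 23.6 for 1 dpci, 111 ± 19.4 for 3 dpci, 134 ± 33.2 for 7 dpci, 194 ± 37.2 for 14 dpci and 248 ± 38.6 for 30 dpci CPM, so that 30 dpci was the highest of the 20 groups. Every SF library of 30 dpci, at 277, 190, 241, 243 and 289 CPM, lay above the uninjured ones at 128, 171 and 157 CPM (log2 change 0.76 ± 0.21 (SE), adjusted p = 0.02, lost without replicate 1, 2, 3 or 5 at 0.67, 0.87, 0.77 and 0.69).

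In PC, got1 averaged 127 ± 8.81 uninjured, 160.1 ± 30.4 for 6 hps, 237 ± 23.0 for 1 dps and 149 ± 33.5 for 3 dps CPM. After injury it averaged 137 ± 28.1 for 6 hpci, 138 ± 17.8 for 1 dpci, 118 ± 30.8 for 3 dpci, 85.2 ± 19.3 for 7 dpci, 125 ± 20.02 for 14 dpci and 148 ± 25.4 for 30 dpci CPM. Its PC level rose after sham at 1 dps, to 218, 258, 230, 264 and 213 CPM against 119, 136 and 126 CPM uninjured (log2 change 0.86 ± 0.21 (SE), adjusted p = 0.0041), a call kept under 15 of 16 alternatives. Against that sham group got1 fell at 1 dpci in PC, to 137, 134, 147, 111 and 159 CPM with no overlap (log2 change -0.70 ± 0.19 (SE), adjusted p = 0.032, lost without replicate 1 or 4 at -0.65 and -0.54). The uninjured PC mean lay within 1 SD of the mean at 1 dpci. At 30 dpci PC had 109, 139, 172, 150.5 and 168 CPM, against 75.3, 70.2, 90.5, 73.4 and 117 CPM at 7 dpci, with overlap (log2 change 0.68 ± 0.21 (SE), adjusted p = 0.049, lost without replicate 1, 3 or 4 at 0.71, 0.67 and 0.53). Between the populations got1 was not called with the factor, and with no factor it was higher in SF at 7 dpci (0.65, adjusted p = 0.011), 14 dpci (0.64, adjusted p = 0.012) and 30 dpci (0.74, adjusted p = 0.0027).

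The malate-2-oxoglutarate carrier slc25a11 moved 2.69-fold between its highest and lowest group mean, the narrowest range of the 9 members with no group at 0. The SF means were 373 ± 41.1 uninjured, 416 ± 73.8 for 6 hps, 338 ± 42.9 for 1 dps and 349.9 ± 42.9 for 3 dps CPM. Its means in injured SF ventricles were 306 ± 31.7 for 6 hpci, 241 ± 34.2 for 1 dpci, 211 ± 48.5 for 3 dpci, 253 ± 39.4 for 7 dpci, 324 ± 23.5 for 14 dpci and 403 ± 53.4 for 30 dpci CPM. At 3 dpci the SF libraries had 145, 215, 182, 244 and 267 CPM, all below the 376, 360.2, 398, 326 and 289 CPM at 3 dps (log2 change -0.50 ± 0.16 (SE), adjusted p = 0.034, lost without replicate 1, 3 or 4 at -0.39, -0.54 and -0.39).

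In PC, slc25a11 averaged 288 ± 40.3 uninjured, 334 ± 71.2 for 6 hps, 359.7 ± 33.2 for 1 dps and 356 ± 54.2 for 3 dps CPM. After injury it averaged 236 ± 24.0 for 6 hpci, 221 ± 28.0 for 1 dpci, 230.5 ± 50.4 for 3 dpci, 155 ± 41.2 for 7 dpci, 202 ± 28.5 for 14 dpci and 297 ± 33.7 for 30 dpci CPM. It rose at 30 dpci above 7 dpci, with 308, 345, 301, 272 and 258 CPM against 129, 133, 129, 158 and 225 CPM and no overlap (log2 change 0.58 ± 0.17 (SE), adjusted p = 0.034, lost without replicate 1 or 4 at 0.49 and 0.40). Both calls held with no factor (-0.73 and 0.94). Neither was kept with 2 factors, with the stricter filter, with thinned libraries or with only the compared groups. Over the 16 alternatives the SF change ran from -0.73 to -0.091 and the PC change from 0.051 to 0.94. No SF and PC difference was called with the factor. With no factor slc25a11 was higher in SF at 7 dpci (0.71, adjusted p = 0.0013) and at 14 dpci (0.68, adjusted p = 0.0018), and at 14 dpci every SF library lay above every PC library.

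**Figure D3:**
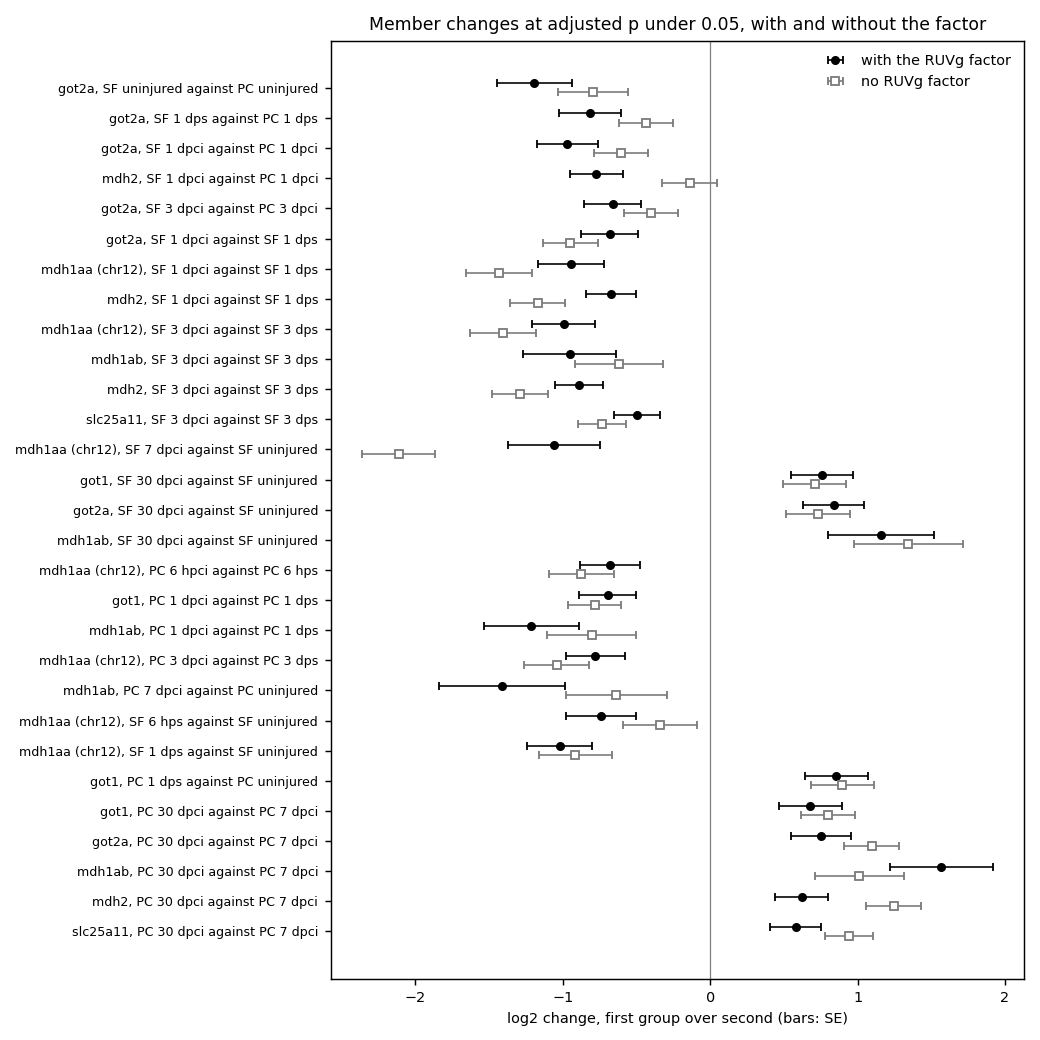
Fitted log2 change (x axis) of each member and comparison at adjusted p under 0.05 in the model with the RUVg factor (y axis, first group over second), with bars of 1 SE. Black points are the fit with the factor and open squares the fit with no factor. Falls of mdh2 and of the chromosome 12 mdh1aa after injury are larger with no factor, and those of mdh1ab are smaller, as in PC at 7 dpci (-1.41 with the factor and -0.64 with none).

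Neither aspartate-glutamate carrier gene slc25a12 nor slc25a13 was called in any comparison with the factor. Most of the slc25a12 reads came from the chromosome 13 gene. In SF it averaged 26.3 ± 16.5 uninjured, 27.7 ± 9.43 for 6 hps, 29.6 ± 6.89 for 1 dps and 24.8 ± 7.70 for 3 dps CPM, and after injury 30.8 ± 6.80 for 6 hpci, 30.5 ± 6.92 for 1 dpci, 18.4 ± 5.64 for 3 dpci, 21.1 ± 9.93 for 7 dpci, 33.0 ± 10.8 for 14 dpci and 37.1 ± 12.6 for 30 dpci CPM. In PC it averaged 30.5 ± 3.67 uninjured, 37.9 ± 11.5 for 6 hps, 53.1 ± 17.0 for 1 dps and 44.2 ± 16.9 for 3 dps CPM, and after injury 30.9 ± 10.1 for 6 hpci, 35.1 ± 11.4 for 1 dpci, 28.8 ± 12.1 for 3 dpci, 19.7 ± 3.57 for 7 dpci, 32.6 ± 3.18 for 14 dpci and 34.2 ± 3.98 for 30 dpci CPM. The spread within groups was wide, as in uninjured SF ventricles at 7.18, 35.4 and 36.2 CPM. With no factor it was lower in SF at 1 dps (-0.85, adjusted p = 0.038) and 3 dps (-0.83, adjusted p = 0.046), and higher in SF at 30 dpci than at 7 dpci (0.82, adjusted p = 0.043), all with overlap.

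The chromosome 19 slc25a12 averaged 7.49 ± 3.27 uninjured, 6.98 ± 3.39 for 6 hps, 6.68 ± 2.16 for 1 dps and 5.98 ± 2.57 for 3 dps CPM in SF, and after injury 3.61 ± 1.77 for 6 hpci, 5.18 ± 2.22 for 1 dpci, 2.58 ± 1.09 for 3 dpci, 3.38 ± 1.95 for 7 dpci, 5.79 ± 1.47 for 14 dpci and 11.3 ± 2.53 for 30 dpci CPM. In PC it averaged 3.88 ± 1.29 uninjured, 3.08 ± 1.19 for 6 hps, 7.55 ± 4.20 for 1 dps and 3.43 ± 1.99 for 3 dps CPM, and after injury 2.74 ± 2.55 for 6 hpci, 3.56 ± 1.47 for 1 dpci, 2.40 ± 2.43 for 3 dpci, 1.04 ± 1.07 for 7 dpci, 3.65 ± 2.99 for 14 dpci and 6.07 ± 3.13 for 30 dpci CPM. SF at 30 dpci had 8.77, 12.2, 15.2, 9.54 and 11.1 CPM, all above the 5.06, 1.37, 1.72, 3.06 and 5.71 CPM at 7 dpci, and this step was called with no factor in SF (1.74, adjusted p = 0.0077) and in PC (2.62, adjusted p = 0.0018). With the factor the changes were 0.40 (adjusted p = 0.91) and 1.59 (adjusted p = 0.21). At its 3′ end this gene shares 1164 bases with dync1i2a on the other strand, which had a median of 159.5 counts. The use of strand in counting is not stated.

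For slc25a13 the SF means ran from 0 counts in all 3 uninjured ventricles to 1.34 ± 1.56 CPM at 30 dpci, and the PC means from 1.11 ± 0.96 CPM uninjured to 3.54 ± 2.23 CPM at 1 dps. The PC mean was above the SF mean in 10 of 10 conditions, and no difference was called at this depth. With at most 3 counts in 73 of the 96 libraries, these means allow no statement on direction. In the order of the 20 group means, neighbours differed by more than the larger of their SDs in at most 2 of 19 steps for any member. For mdh2 these were SF at 14 dpci over PC at 6 hpci and SF at 1 dpci over PC at 7 dpci.

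**Figure D4:**
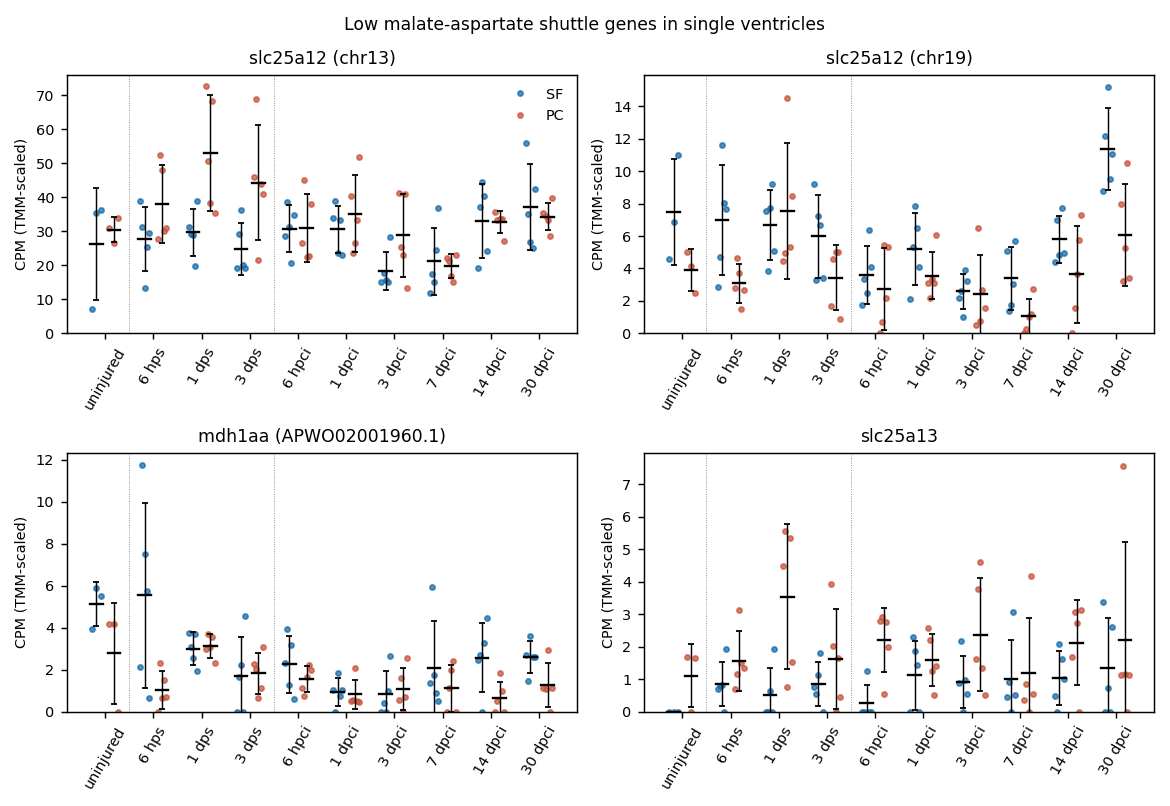
Levels of the 4 low malate-aspartate shuttle genes in TMM-scaled CPM (y axis, from 0, a different scale in each panel) by condition (x axis), with SF left of PC. Points are single ventricles, black bars the mean and SD (n = 3 uninjured, otherwise 5). The slc25a13 panel shows all 3 uninjured SF ventricles at 0, and libraries of the 2 populations overlap in most conditions.

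Counted over the members, SF against PC asked which genes of the shuttle differ by population. All 5 calls were lower in SF, 4 of got2a and 1 of mdh2. In uninjured ventricles 1 of 10 members was called, where 6.55% of all genes were. At 6 hps 0 of 10 were called (all genes 8.16%), at 1 dps 1 (8.98%), at 3 dps 0 (8.22%) and at 6 hpci 0 (9.07%). At 1 dpci 2 of 10 were called (10.2%), at 3 dpci 1 (8.43%), and at 7, 14 and 30 dpci 0 (6.68%, 10.5% and 8.07% of all genes). Over the 10 conditions 5 of 100 tests were called, a share of 5%, below that of all genes in each condition. In the conditions with 0 calls, an unadjusted p under 0.05 was found for 1 member for 6 hps, 3 for 3 dps, 2 for 6 hpci, 3 for 7 dpci, 3 for 14 dpci and 1 for 30 dpci. With no factor 19 of 100 tests were called (8.25% of all genes over the 10 conditions), 13 of them higher in SF, and with 2 factors 21 were, all higher in SF, so the direction of the count depends on the number of factors.

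Injury against its control asked what the lesion changed within each population, with 16 of 120 tests called and 13 of them lower. In SF, 0 of 10 members were called at 6 hpci (all genes 0.842%), 3 for 1 dpci (1.71%), 4 for 3 dpci (7.42%) and 1 for 7 dpci (3.28%), all lower. At 14 dpci 0 were called (2.84%) and at 30 dpci 3 (4.79%), all higher. In PC, calls numbered 1 for 6 hpci (2.86%), 2 for 1 dpci (2.1%), 1 for 3 dpci (3.25%) and 1 for 7 dpci (2.74%), all lower. At 14 and 30 dpci in PC 0 were called (0.458% and 0.517%). The comparisons at 7, 14 and 30 dpci share their uninjured ventricles and have no sham group of their own. With no factor 34 of 120 tests were called (7.02% of all genes), 30 of them lower, and with 2 factors 3 were, all higher. With the stricter filter 4 of 96 tests were called, all higher, so neither of the last 2 settings called a fall.

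The interaction asked whether the populations differed in their response to injury. With the factor 0 of 60 tests were called by edgeR or DESeq2, and 0 with no factor. Other edgeR fits called 1 of 60 with 2 factors, 3 with thinned libraries and 4 with only the compared groups. The stricter filter called 2 of 48. All of these were positive, the SF change lying above the PC change. The background was 0%, 0.32%, 0.117%, 1.01%, 1.01% and 0.4% of all genes at 6 hpci and at 1, 3, 7, 14 and 30 dpci (with no factor 0.25% over the 6 times). Unadjusted p was under 0.05 for 0, 2, 1, 2, 2 and 2 members at these times. At 7 dpci the interaction of mdh1ab was 1.39 (adjusted p = 0.15) and that of got2a 0.88 (adjusted p = 0.10). As the interaction calls depended on the fit, a fall called in one population and not in the other is not shown to differ between them.

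The sham operation alone was called for 3 of 60 tests. In SF these were the chromosome 12 mdh1aa at 6 hps, 1 of 10 members (all genes 8.26%), and at 1 dps (11.4%). At 3 dps 0 were called (3.04%). In PC, got1 was the 1 member called at 1 dps (6.08%), with 0 at 6 hps (6.89%) and 0 at 3 dps (1.36%). With no factor 4 of 60 were called (5.97% of all genes), 2 of them higher. With 2 factors 10 of 60 were called and with the stricter filter 12 of 48, all higher. The direction of the sham count thus depends on these settings.

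At 30 dpci against 7 dpci, the fitted change with the factor was positive in both populations for the 8 members other than the scaffold mdh1aa and slc25a13, whose counts are too few to give a direction. In PC 5 of 10 were called higher at 30 dpci, mdh1ab, got2a, mdh2, slc25a11 and got1, where 4.13% of all genes were called. In SF 0 of 10 were called (2.11% of all genes), with an unadjusted p under 0.05 for 6. The median change over the 10 members, those of few counts included, was 0.71 in PC and 0.58 in SF on the log2 scale, against a median of -0.04 over all genes in each. With no factor 7 members were called higher in each population (12.5% of all genes over both), and 0 were when only the compared groups entered the fit, where the PC changes of got1 (-0.16), got2a (-0.12) and mdh2 (-0.071) were negative. The summed cardiomyocyte markers were 26755 to 39401 CPM at 30 dpci against 9140 to 19855 CPM at 7 dpci in PC, and 30128 to 52289 CPM against 11462 to 21694 CPM in SF. Fibroblast and epicardial markers ran the other way, at 501 to 776 CPM against 1605 to 2949 CPM in PC and 322 to 610 CPM against 1703 to 2736 CPM in SF. Their part in these rises was not tested.

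Genes whose 20 group means ran most like a member were searched among 3563 named genes with a mean of at least 20 CPM. For mdh2 they were slc25a5, an adenine nucleotide carrier (Pearson r = 0.98), the ATP synthase subunit atp5f1c (0.97) and the complex I subunit ndufs4 (0.97). For mdh1aa on chromosome 12 they were bmp10l (0.97), tmem38a (0.97) and the mitochondrial porin vdac3 (0.96). For slc25a11 they were cox5ab, a cytochrome oxidase subunit (0.96), the muscle phosphofructokinase pfkma (0.96) and atp5f1d (0.95). For got2a they were the mitochondrial creatine kinase ckmt2b (0.92), acadm, which oxidizes medium-chain fatty acids (0.90), and mcee (0.90). For got1 they were mrps34 (0.90), alas1, the first enzyme of haem synthesis (0.89), and ndufab1a (0.88). For mdh1ab they were the glycogen phosphorylase pygmb (0.88), the endothelial receptor kdrl (0.87) and abtb2b (0.84). For slc25a12 on chromosome 13 they were ldb3a, aifm1 and bcl2l13 (0.85, 0.85 and 0.83). The other members have too few reads for such a comparison, and all r values are descriptions over 20 groups.

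Other genes of the same chemistry came from lists of pathway members. Of the glycerol-3-phosphate shuttle, the alternative route for cytosolic NADH, 4 of 5 genes passed the filter and 4 tests of 144 were called in the 36 comparisons. The share of all genes called ran from 0% to 11.4% over these comparisons. The cytosolic enzyme gpd1b fell in SF at 1 dpci (log2 change -1.66 ± 0.40 (SE), adjusted p = 0.0098) and was higher at 30 dpci than at 7 dpci (log2 change 1.93 ± 0.46 (SE), adjusted p = 0.0081). The mitochondrial gpd2 averaged 15.5 CPM and was not called. Of 16 citric acid cycle genes, those called most often were idh3b, a subunit of isocitrate dehydrogenase (15 comparisons), the citrate synthase cs (12) and sdhc of succinate dehydrogenase (10). Between the populations, 1 to 7 of the 16 were called lower in SF in each of the 10 conditions and at most 1 higher, 41 and 2 calls in all, where 6.55% to 10.5% of all genes were called in either direction. With no factor 9 calls were lower and 4 higher (8.25% of all genes), 0 were lower at 6 hpci, 7 dpci and 30 dpci, and the median change of the list ran from -0.45 to 0.34 over the conditions, against -0.69 to -0.04 with the factor. Uninjured SF ventricles had 27.0 CPM of cs against 80.0 CPM in PC (log2 change -1.92 ± 0.34 (SE), adjusted p = 3.4e-05). At 30 dpci over 7 dpci, 4 of the 16 rose in PC (4.13% of all genes), such as cs (log2 change 1.02 ± 0.26 (SE), adjusted p = 0.0095), and 1 in SF (2.11% of all genes). With no factor 9 rose in PC and 8 in SF (12.5% of all genes over both).

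Among 18 tested genes of glutamate, aspartate and malate metabolism, glud1b, which makes 2-oxoglutarate from glutamate, was higher in SF uninjured (log2 change 1.62 ± 0.26 (SE), adjusted p = 5.3e-06). It was also called higher in SF at 6 hps, 1 dps, 6 hpci and 14 dpci (1.71, 0.85, 1.46 and 0.58). The glutamine synthetase glula (ENSAMXG00000019301) rose at 7 dpci over uninjured in SF (log2 change 3.33 ± 0.53 (SE), adjusted p = 1.2e-05) and in PC (log2 change 3.34 ± 0.51 (SE), adjusted p = 6.2e-06). The malic enzyme me1 was higher in SF at 7 dpci (log2 change 1.33 ± 0.31 (SE), adjusted p = 0.002). Calls of me1 higher in SF were also made at 6 hps, 3 dps, 6 hpci and 14 dpci (1.805, 0.88, 1.48 and 1.12). One of 3 genes with the symbol asns, asparagine synthetase (ENSAMXG00000035392), was higher in SF in all 10 conditions, with a mean of at least 15.4 CPM in SF and at most 1.29 CPM in PC. Another asns gene (ENSAMXG00000039240), named after its values were seen, was called lower in SF at 6 hps, 1 dps, 3 dpci, 7 dpci and 14 dpci, with log2 changes of -1.11 to -1.60. Whether PC reads were assigned to these genes as SF reads were, on an annotation labelled for surface fish, was not tested. Of 4 lactate dehydrogenase genes, ldhba was the most abundant, at 2950 CPM over all libraries, and fell in SF at 1 dpci (log2 change -1.45 ± 0.19 (SE), adjusted p = 6.1e-07). Its interaction at 1 dpci was also called (log2 change -1.21 ± 0.24 (SE), adjusted p = 0.0056). The sham groups behind it were themselves lower than uninjured ones, in PC (log2 change -0.91 ± 0.20 (SE), adjusted p = 0.00079) and in SF (log2 change -0.61 ± 0.20 (SE), adjusted p = 0.031). The part of sham in this interaction was not tested. The gene ldha was higher in SF at 30 dpci (log2 change 1.01 ± 0.23 (SE), adjusted p = 0.0015). It was also called higher in SF at 6 hps, 6 hpci, 7 dpci and 14 dpci (0.72, 0.69, 0.83 and 0.87).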

How the data were processed

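RNA of single ventricles was made into QuantSeq 3′ libraries. Per the study's methods and the submitters' processing notes, the authors demultiplexed reads with bcl2fastq 2.20.0, trimmed them with Trim Galore 0.6.4, and aligned and counted them with STAR 2.7.6a on Mexican tetra 2.0 with a customized Ensembl annotation. The deposited table used here holds raw counts per gene for 96 libraries, with 672292 to 2586602 counts each (median 1687721.5). The use of strand and of reads with several matches is not given in the sources used here. A second deposited table of regularized log2 values served only to read gene symbols.

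Members and gene lists were chosen with earlier results of these data known. Groups came from the labels. The 18763 of 27420 genes that reached 1 CPM in any library were fitted with edgeR 4.0.16 (R 4.3.3), by the quasi-likelihood test on TMM-scaled counts, with a coefficient per group and 1 RUVg factor (the methods give no number), for which genes of below-median coefficient of variation served as controls. The study's own tool, DESeq2 (1.42.0), and its added rule of more than 2-fold were alternatives. The p-values were adjusted by Benjamini-Hochberg over all genes. Shares of reads were compared by exact two-sided permutation tests (SciPy 1.17.1, Python 3.11.15).

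Every member was named, with full statistics for pairs called. From each other list up to 4 genes could be named, those called in most comparisons, and for each member the 3 genes with the highest r. The fit was tested on simulated data for SF against PC at 7 dpci, where it recovered 28 of 50 genes changed by -1, 30 of 50 by 1, 50 of 50 by -2 and 46 of 50 by 2 on the log2 scale. The simulated libraries held no unwanted variation and no other difference between groups, and only genes with enough reads were changed. These rates therefore do not show how the fit does where the factor differs between groups. Precision at low counts is limited by counting error. Other alternatives were RLE scaling, other filters, 0 or 2 factors, a replicate block, libraries thinned to the smallest total, leaving out each replicate number, and fits of only the groups compared. Leaving out the libraries with skeletal muscle genes, and the mdh1ab share, were chosen after seeing the data.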

Additional observations from a re-analysis of the deposited data

Results flagged for a closer look

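Members with a median of at least 10 counts were checked in each group of 5 ventricles, 126 pairs of member and group. In 5 of these pairs 1 library stood apart from the rest of its group by Dixon's criterion. Chance alone flags about 1 in 20 pairs. The PC 7 dpci replicate 5 had 547 CPM of got2a, against 279 to 319 CPM in the other 4, and 197 CPM of mdh1ab, against 109 to 131 CPM. The SF 1 dpci replicate 4 had 298 CPM of mdh1aa on chromosome 12, against 134 to 161 CPM. For slc25a12 on chromosome 13, SF 3 dpci replicate 5 had 28.3 CPM, against 14.9 to 17.7 CPM, and PC 14 dpci replicate 5 had 27.2 CPM, against 33.3 to 35.6 CPM.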

How the results depend on the processing

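The counts of called members depended on how unwanted variation was handled. Against 5 calls for SF against PC, 16 for injury, 0 for the interaction, 3 for sham and 5 for 30 against 7 dpci, the fit with no RUVg factor gave 19, 34, 0, 4 and 14, and 2 factors gave 21, 3, 1, 10 and 0. A filter of at least 10 counts in 5 libraries, which leaves 8 members, gave 26, 4, 2, 12 and 0. Fits of only the groups compared gave 4, 5, 4, 7 and 0, and the added rule of more than 2-fold gave 1, 4, 0, 1 and 1. Thinned libraries gave 9 calls for SF against PC and 3 for the interaction, and no filter beyond 1 read gave 12 for SF against PC. All SF against PC calls were lower in SF, but 13 of 19 were higher with no factor, 20 of 26 with the stricter filter and 21 of 21 with 2 factors. Leaving out each replicate number gave 1 to 8 calls for SF against PC, 5 to 22 for injury, 0 for the interaction, 1 to 4 for sham and 1 to 12 for 30 against 7 dpci. RLE scaling, DESeq2 and leaving out the 3 libraries with skeletal muscle genes kept each count within 1.5 times. The cause of these shifts was not tested.

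Some changes reversed. With 2 factors mdh2 at 1 dpci in SF against PC was 0.067, and mdh1aa on chromosome 12 was 0.064 in PC at 3 dpci, 0.52 in SF at 6 hps and 0.23 at 1 dps. With the stricter filter mdh2 at 1 dpci in SF against PC was 0.11 and mdh1aa at 6 hps in SF 0.22. In fits of only the groups compared, mdh1aa was 0.17 in SF at 7 dpci, mdh1ab 0.56 in PC at 7 dpci, and for 30 against 7 dpci in PC got1 was -0.16, got2a -0.12 and mdh2 -0.071. The replicate block gave 7, 13, 0, 3 and 6 calls in the order above. Replicate numbers are only names here, since same-numbered libraries deviated together no more than others (median r 0.0043, against -5e-05 for other numbers, with 8.34% and 8.2% over 0.1). Genes with at most 3 counts in most libraries, the scaffold mdh1aa and slc25a13, allow no statement on direction.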
